A study of Mus musculus with 2 samples.

Results

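The 7 genes Bnip3, Higd1a, Ankrd37, Fam162a, Ero1l, Egln3 and Ndrg1 are induced when cells run short of oxygen and encode no enzyme of glycolysis. They were named as a set with earlier results of these data known, and all 7 are among the 9127 genes that the count tables of both libraries list. The libraries held single cells from tumours of C57BL/6 mice that were WT or Cdh-cre Myct1 fl/fl, the second with a floxed Myct1 allele and a Cre transgene that the series title spells Cdh5-cre, after the endothelial cadherin gene. Each genotype is 1 droplet library of cells pooled from 4 mice, so the library of a genotype and the genotype itself cannot be told apart and no test was made. The sources used here do not give the ages, the kind of tumour, which exon was floxed or whether cells were sorted. The second genotype is called the knockout below, and differences are given as log2 ratios of knockout over WT with exact 95% intervals that cover counting error only.

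Hypoxia-inducible factors are transcription factors made of an oxygen-labile alpha subunit (Hif1a or Epas1) and Arnt. With oxygen, prolyl hydroxylases of the Egln family mark the alpha subunit for destruction through Vhl; without it, the dimer binds a short core sequence near its target genes. Besides the glycolytic enzymes, those targets include genes that act on mitochondria, on protein folding and on oxygen sensing itself, and tumours, whose vessels perfuse poorly, are a tissue in which they are often high.

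By role the 7 genes form 4 groups. Bnip3 encodes a mitophagy receptor of the outer mitochondrial membrane, Higd1a a small inner membrane protein that associates with cytochrome oxidase, and Fam162a a mitochondrial protein also called growth and transformation-dependent protein. Ero1l, called Ero1a in RefSeq, encodes the oxidase that re-oxidises protein disulphide isomerase in the endoplasmic reticulum. Egln3 is one of the prolyl hydroxylases that mark the alpha subunit, and so a target that feeds back on its inducer. Ankrd37 encodes an ankyrin repeat protein, and Ndrg1 a cytoplasmic protein of the N-myc downstream-regulated family that Sgk1 phosphorylates.

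The core that the factors bind is usually written as ACGTG or GCGTG, and stretches of promoter that hold one are shown. Promoter sequence was not used to choose the genes. They were chosen as hypoxia-induced, however, so the core is not independent of the choice. RefSeq windows of the GRCm38.p6 assembly, from 250 bases before to 50 bases after the start that RefSeq gives each gene, were searched on both strands, and 6 of the 7 genes had a window. Capitals mark the core, each sequence is read 5′ to 3′ along the gene's own strand, which is the minus strand for all of them, and CACGT is ACGTG on the opposite strand.
Bnip3 (chr7:138909597-138909625): cgcacgcgccgcACGTGccacacgctccc
Ankrd37 (chr8:46000075-46000100): cccagcagtACGTGcctagctcggct
Fam162a (chr16:36071626-36071654): ccgctcgtcgcgCACGTcccgcacgcccg
Ero1l (chr14:45318619-45318647): cgcgcgccgctgCACGTccgcaggggagg
Egln3 (chr12:54204087-54204115): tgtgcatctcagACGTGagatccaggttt
Higd1a (chr9:121857850-121857878): ccggtctagcctGCGTGcgtggcgttcgc
ACGTG was found in 6 of the 6 windows, 8 times in all, against 19.6% of 32851 windows of the same length, and GCGTG in 5 of 6, 14 times in all, against 32.4%. Those windows were not matched for base composition. The Bnip3 match overlaps a second one on the opposite strand that begins 1 base earlier. In Higd1a the ACGTG match lies at 43 bases after the start, and the upstream GCGTG match is printed instead. A match describes these letters and is no evidence of binding. The genes themselves, all on the minus strand in the GENCODE annotation of the same assembly, span chr7:138890836-138909519 for Bnip3, chr9:121848563-121858362 for Higd1a, chr8:45996902-46005707 for Ankrd37, chr16:36043761-36071594 for Fam162a, chr14:45283087-45318771 for Ero1l, chr12:54178981-54203860 for Egln3 and chr15:66929318-66969640 for Ndrg1. The RefSeq start is not always the first base of that span: it lies 5857 bases inside it for Ankrd37 and 566 bases inside it for Higd1a, so both of those windows lie wholly within the GENCODE gene, and 199 bases inside it for Ero1l.

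The WT table held 115519153 unique molecular identifiers (UMIs, 1 per captured RNA molecule) in 10880 barcodes, that of the knockout 145331950 in 10700, and 7898 and 8090 cells passed the filters. Cells were classed by marker genes as endothelial (522 WT and 288 knockout cells), mural, the pericytes and smooth muscle cells around vessels (92 and 21), fibroblast (2662 and 93), or Krt8 and Krt18 positive, the keratin-bearing cells (3586 and 6602). Of the gated cells, 3 endothelial cells in each library, and 25 of the 2662 WT and 15 of the 93 knockout fibroblasts, carried 1 of the 218 barcodes present in both libraries. Myct1 had 934 UMIs, 247 CPM (counts scaled to a total of 1e6), in WT endothelial cells and is not listed in the knockout table. In endothelial cells all 15 endothelial markers were present, at 11837 CPM summed in WT and 8944 CPM in the knockout, and the leukocyte gene Ptprc was at 0 UMIs in both.

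In the endothelium the knockout library had higher levels of 6 of the 7 genes, by 1.5-fold or more, with Bnip3, Fam162a, Higd1a and Ankrd37 between 2.52-fold and 3.11-fold higher. Ndrg1 alone was lower. At that fold 11.4% of the 8075 genes with at least 20 UMIs were higher and 36.3% were lower, and the median log2 ratio was 1.33 over the 7 genes and -0.34 over all those genes. With totals scaled by TMM factors (trimmed means of the gene ratios), the shares of all genes were 23.1% higher and 17.7% lower and the median of all genes moved by 0.32, while 6 of the 7 genes were still higher and 0 were lower.

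The mitochondrial genes came first in size. Bnip3 was at 18.8 CPM in WT endothelial cells (71 UMIs) and 58.6 CPM in knockout ones (138 UMIs), a log2 ratio of 1.64 (1.22 to 2.07). Higd1a was at 113 CPM in WT and 322 CPM in the knockout (428 and 757 UMIs), a log2 ratio of 1.504 (1.33 to 1.68). Fam162a was at 65.4 CPM in WT and 188 CPM in the knockout (247 and 442 UMIs), a log2 ratio of 1.52 (1.29 to 1.75). The counting intervals of the 2 libraries were apart for all 3 genes, and between 98.9% and 99.1% of all genes counted had a lower ratio than each of them.

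The remaining 4 genes differed more among themselves. Ankrd37 was at 103 CPM in WT and 259 CPM in the knockout (388 and 610 UMIs), a log2 ratio of 1.33 (1.15 to 1.52). Ero1l was at 57.7 CPM and 114 CPM (218 and 269 UMIs), a log2 ratio of 0.98 (0.72 to 1.25). Egln3 was at 31.8 CPM and 64.2 CPM (120 and 151 UMIs), a log2 ratio of 1.01 (0.66 to 1.37). For these 3 the intervals of the 2 libraries were apart as well. Ndrg1 was at 196 CPM in WT and 127 CPM in the knockout (741 and 300 UMIs), a log2 ratio of -0.62 (-0.82 to -0.43), and 33.8% of all genes counted had a lower ratio than that. Its ratio was -0.30 with TMM factors and -0.06 relative to genes of like transcript length, so at neither setting did it pass 1.5-fold.

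Transcript length moved with the ratios of all genes in this comparison. The median log2 ratio in endothelial cells went from 0.44 for genes whose longest transcript is under 1000 bases to -0.76 for those of at least 8000 bases. Relative to the 500 genes nearest in length, Ero1l (4418 bases) had a ratio of 1.61, Higd1a (2232 bases) 1.58, Bnip3 (1756 bases) 1.49 and Egln3 (2662 bases) 1.23. The short transcripts Fam162a (718 bases) and Ankrd37 (927 bases) had 1.07 and 0.88. The 6 genes were thus higher in the knockout library by at least 1.5-fold on that scale too, and their order was another one.

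**Figure D1:**
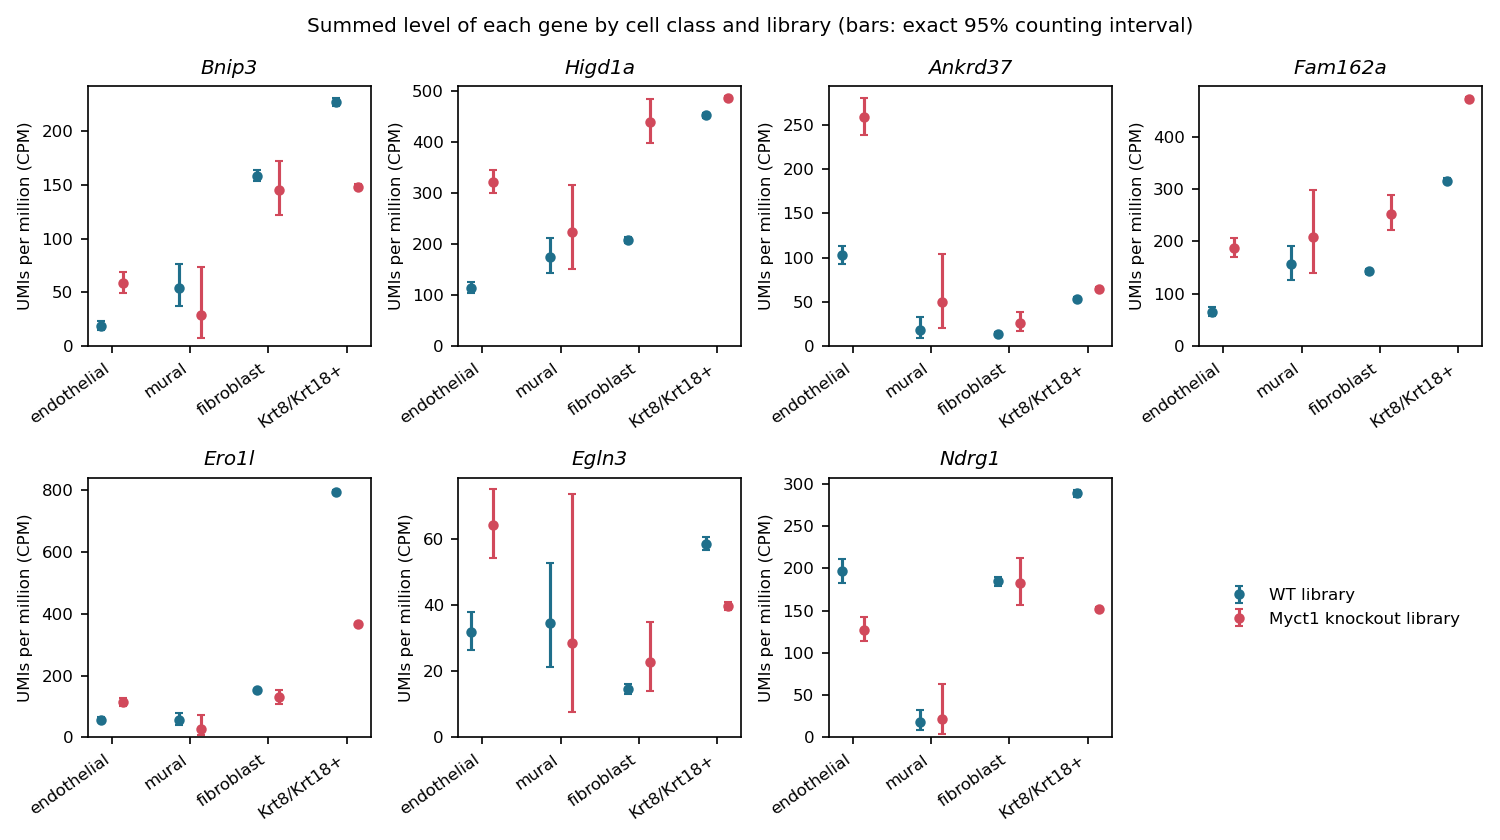
Each panel is 1 gene, with the cell class on the horizontal axis and the summed level in CPM on the vertical axis, WT in blue and the knockout in red, and bars for the exact 95% counting interval of 1 library each. In the endothelial column red lies above blue for 6 genes and below it for Ndrg1 (196 against 127 CPM), and in the Krt8 and Krt18 positive column red lies below blue for Bnip3, Ero1l, Egln3 and Ndrg1.

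The share of endothelial cells with a UMI moved the same way. After each cell was thinned to 3000 UMIs, which left out 35 WT and 23 knockout cells, Higd1a was detected in 24.8% of 487 WT and 55.8% of 265 knockout endothelial cells. Without thinning it was detected in 48.9% and 81.2%, at median depths of 6216.5 and 7104.5 UMIs. In thinned cells Ankrd37 was detected in 21.4% and 42.3%, Fam162a in 20.9% and 39.6%, and Ero1l in 14.4% and 22.6%. Bnip3 was found in 5.54% and 13.2% of thinned cells, Egln3 in 6.78% and 11.7%, and Ndrg1 in 42.1% and 20.8%. The 5 cells with the most UMIs held 9.25% of Higd1a UMIs and 24.7% of Ndrg1 UMIs in knockout endothelial cells, the lowest and highest such shares there, with Ero1l at 22.3% and Bnip3 at 22.5%. In WT endothelial cells that share was 11.01% for Ero1l and 22.5% for Bnip3. In the same thinned cells at least 3 of the 7 genes were detected in 13.6% of WT and 30.9% of knockout endothelial cells, and none of them in 21.1% and 9.43%.

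Levels of the 7 genes in endothelial cells were set beside those of free RNA from the keratin positive cells. Spp1 and Lgals7, abundant in Krt8 and Krt18 positive cells and not used to gate, were also present in endothelial cells. The lower and higher of their 2 shares of the keratin positive level were 1.40% and 1.49% in WT and 1.53% and 3.10% in the knockout. In fibroblasts Spp1 was higher, at 1421 CPM in WT and 6218 CPM in the knockout, against 946 and 1876 CPM in keratin positive cells. Its share need not come from keratin positive cells alone, which leaves Lgals7 as the only other gene behind this background. The 7 genes were at 7.27% (Ero1l) to 193% (Ankrd37) of their keratin positive level in WT endothelial cells and at 31.3% (Ero1l) to 399% (Ankrd37) in knockout ones. The nearest to that background was Bnip3 in WT, at 18.8 CPM, where the highest free RNA share would give 3.38 CPM, and Ero1l in WT, at 57.7 CPM against 11.8 CPM. Every level thus lay above the share seen for those 2 genes. In endothelial cells with no UMI of Krt8 or Krt18 (484 WT and 250 knockout cells), 6 of the 7 genes were again higher, against 11.8% of all genes, and Ndrg1 was lower, against 35.1%, with log2 ratios of the 6 from 0.89 for Ero1l to 1.54 for Bnip3.

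Markers of other cell types in the endothelial cells also differed between the libraries. The 10 mural markers summed to 1325 CPM in WT and 772 CPM in the knockout, of which Mcam, which endothelial cells express too, made up 1167 and 657 CPM, while Cspg4 and Myh11 were at 0 in both. The 10 fibroblast markers summed to 209 and 48.9 CPM, with Dpt, Lum and Pdgfra at 0 in the knockout, the 10 macrophage markers to 20.4 and 20.8 CPM, and the 4 haemoglobin genes to 569 and 3.82 CPM. Krt8 and Krt18 summed to 11.4 CPM (43 UMIs) and 17.8 CPM (42 UMIs), and 0 of 5 lymphocyte markers were listed. Apart from the keratins, the part of these markers in the ratios was not tested.

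The makeup of the endothelial cells differed too, and the ratios were taken again within subsets. Cells with at least 2 of 8 cell cycle markers were 7.28% of WT and 22.2% of knockout endothelial cells. Among the others (484 WT and 224 knockout cells) 6 of the 7 genes were higher, against 10.2% of all genes, and 1 was lower, against 35.1%; the ratios of all 6 were larger, from 1.93 for Bnip3, 1.67 for Fam162a, 1.52 for Higd1a and 1.45 for Ankrd37 to 1.22 for Ero1l and 1.21 for Egln3, each within the counting interval of its value over all endothelial cells. In the 38 and 64 cycling cells 5 of the 7 were higher, against 10.2% of all genes, and 0 lower, against 36.0%, with Ndrg1 at 0.25 (-0.30 to 0.84). Cells with at least 2 of 7 tip cell markers, genes of the leading cells of vessel sprouts, were 81.4% of WT and 86.1% of knockout endothelial cells. In those 425 and 248 cells 6 of the 7 genes were higher, against 11.7% of all genes, and 0 were lower, against 36.1%, with Ndrg1 at -0.45. In the cells with fewer tip cell markers (97 and 40) Ndrg1 was at 335 CPM in WT and 91.2 CPM in the knockout, a ratio of -1.83 (-2.75 to -1.11), and Higd1a was at 111 and 195 CPM (0.82, 0.13 to 1.48). Of the 5 genes with at least 20 UMIs there, 3 were higher, against 15.9% of all genes, and 1 was lower, against 33.1%.

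A split by 4 vascular genes detected in unequal shares of the 2 libraries' endothelial cells turned the direction of Ndrg1. Cells with no UMI of Acer2, Cd36, Rbp7 and Cd300lg were 14.4% of WT (75 cells) and 51.4% of knockout cells (148 cells). In them Ndrg1 was at 71.2 CPM in WT and 120 CPM in the knockout, a log2 ratio of 0.74 (0.23 to 1.32), the opposite direction to that over all endothelial cells. In cells with a UMI of any of the 4 it was at 217 CPM in WT and 133 CPM in the knockout (-0.71, -0.96 to -0.47), 6 of the 7 genes were higher, against 12.5% of all genes, and 1 was lower, against 36.5%. In the cells without these UMIs 5 of the 7 genes were higher, against 10.3% of all genes, and 0 were lower, against 34.6%, the higher ones being Ndrg1, Fam162a (1.56), Higd1a (1.19), Bnip3 (1.13) and Ankrd37 (1.06). There Ero1l (0.39, -0.12 to 0.94) and Egln3 (0.14, -0.41 to 0.73) had intervals that include 0: Egln3 was at 73.1 CPM in those WT cells and 24.8 CPM in the other WT cells. This split was added after the data were seen, and a cell with few UMIs is more likely to lack all 4 genes.

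**Figure D2:**
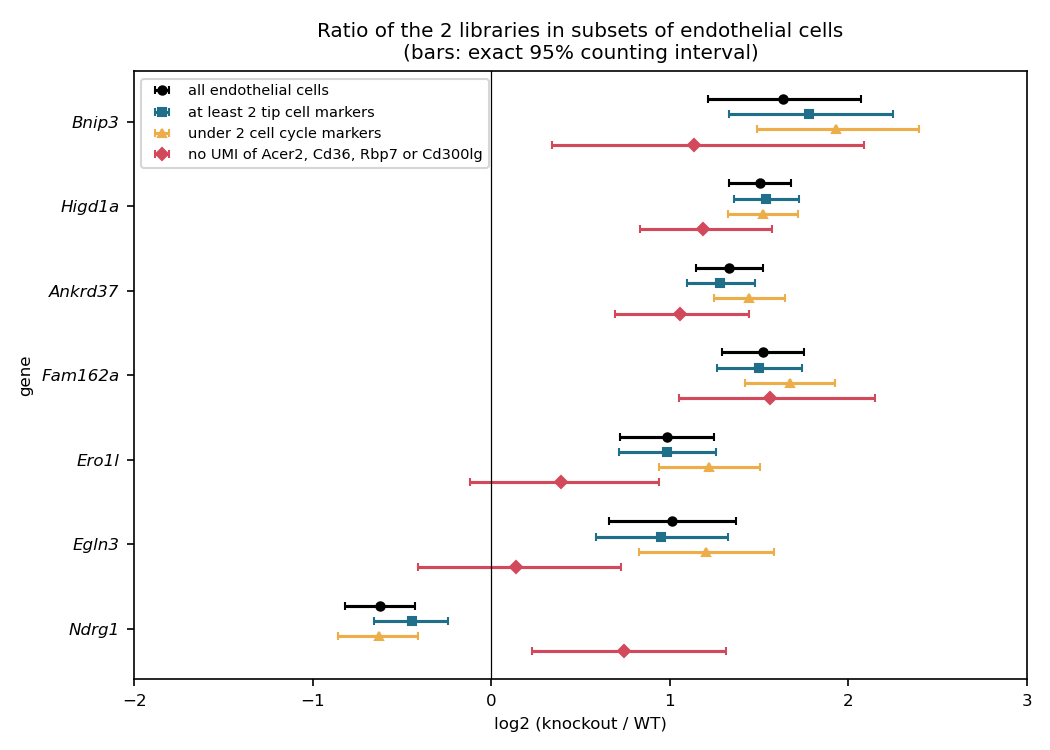
Each row is 1 gene and each marker its log2 ratio of knockout over WT in 1 subset of endothelial cells (horizontal axis), with bars for the exact 95% counting interval. The red diamonds, for cells with no UMI of Acer2, Cd36, Rbp7 or Cd300lg, lie at 0.74 for Ndrg1, where the other markers drawn lie between -0.63 and -0.45, and near 0 for Egln3 (0.14).

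In Krt8 and Krt18 positive cells, the largest class, the 7 genes split by direction. Ero1l, Ndrg1 and Bnip3 were at least 1.5-fold lower in the knockout library, where 18.3% of 8802 genes were, and 0 of the 7 were that much higher, where 5.25% of genes were. The median was -0.56 over the 7 genes and -0.24 over all genes. With TMM factors 6.45% of all genes were lower and 14.2% higher, and the median of all genes moved by 0.24, with 2 of the 7 genes lower and 1 higher. Relative to genes of like transcript length Bnip3 was at -0.74, Ero1l at -0.73 and Ndrg1 at -0.56, so there Ndrg1 did not pass 1.5-fold. With equal weight per cell Bnip3 was at -0.52 and did not pass it.

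Ero1l was at 794 CPM in WT keratin positive cells and 366 CPM in knockout ones (46829 and 43927 UMIs), a log2 ratio of -1.12 (-1.14 to -1.10). Ndrg1 was at 289 CPM and 152 CPM, a ratio of -0.93 (-0.96 to -0.90). Bnip3 was at 227 CPM and 149 CPM, a ratio of -0.61 (-0.65 to -0.58), which became -0.38 with TMM factors. For Ero1l, 3.24% of all genes counted had a lower ratio. Egln3 was at 58.5 CPM and 39.8 CPM (-0.56, -0.62 to -0.49), just inside 1.5-fold. Fam162a was at 316 CPM in WT and 473 CPM in the knockout (0.58, 0.56 to 0.60), just inside 1.5-fold in the other direction, and at 0.82 with TMM factors it was past it. Relative to genes of like transcript length its ratio was 0.26. The median log2 ratio of all genes in these cells ran from 0.30 for transcripts under 1000 bases to -0.43 for those of at least 8000 bases. Higd1a was at 452 and 486 CPM (0.10, 0.08 to 0.13) and Ankrd37 at 53.4 and 64.9 CPM (0.28, 0.22 to 0.34), and Ankrd37 had a ratio of -0.05 relative to genes of like length. The intervals here are narrow because 3586 and 6602 cells were summed, and they say nothing of how tumours of 1 genotype differ among mice.

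**Figure D3:**
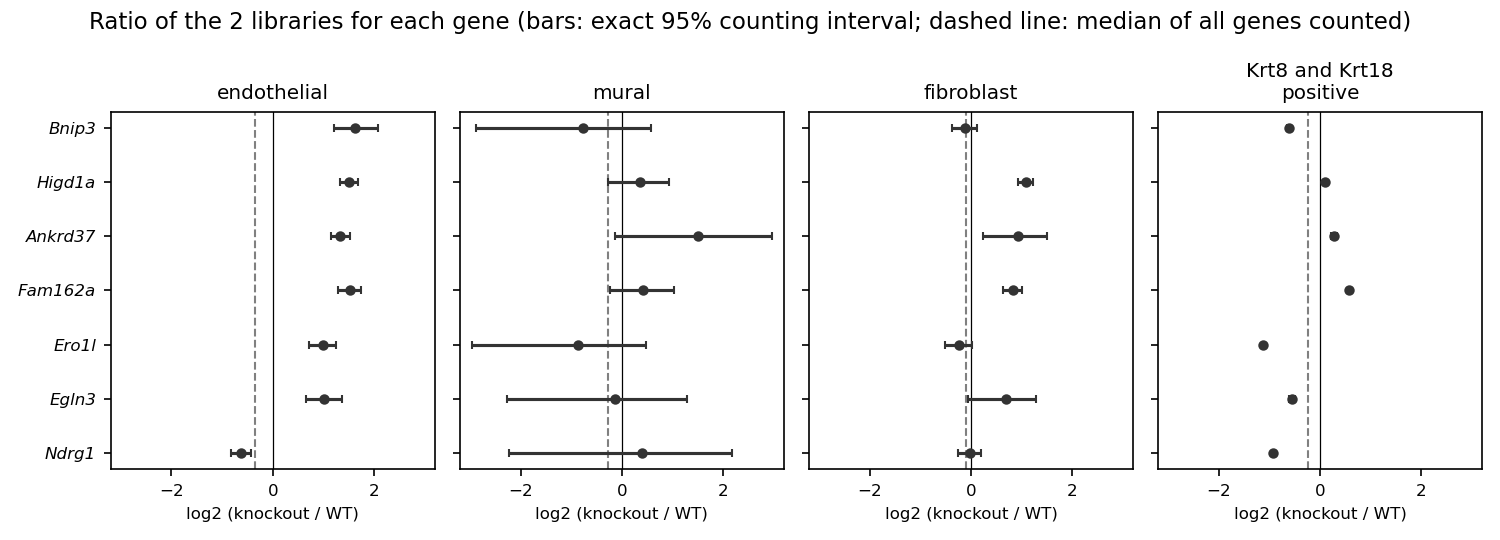
Each panel is 1 cell class and each point the log2 ratio of knockout over WT of 1 gene (horizontal axis), with bars for the exact 95% counting interval and a dashed line at the median of all genes counted. Bnip3, Ero1l and Egln3 lie right of 0 in endothelial cells (1.64, 0.98 and 1.01) and left of it in Krt8 and Krt18 positive cells (-0.61, -1.12 and -0.56), and the mural intervals are wide.

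Within the keratin positive cells each of the 7 genes followed the glycolytic genes. Cells of each library were ordered by the share of their UMIs on 19 glycolytic genes, which include none of the 7, and cut in 5 ranges of equal cell number. The lowest range had 4987 CPM of glycolytic genes in WT and 6025 CPM in the knockout, and the highest 14729 and 15311 CPM. In both libraries the level of every one of the 7 genes was higher in each range than in the one below. The share of all genes that did so was not counted, so this is not shown to be particular to the 7. In WT, Ero1l went from 134 CPM in the lowest range to 2091 CPM in the highest, a 15.6-fold difference, and in the knockout from 129 to 781 CPM, 6.08-fold. Bnip3 went from 50.5 to 458 CPM in WT (9.06-fold) and from 41.4 to 316 CPM in the knockout (7.63-fold). The smallest differences were those of Egln3 in WT, 2.73-fold, and of Ndrg1 in the knockout, 3.14-fold.

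The ratio between the libraries also changed along the ranges, most for Ero1l and Ndrg1. The ranges were cut within each library and do not match between them. Each had a higher sum of glycolytic genes in the knockout. The lowest was at 4987 CPM in WT against 6025 CPM, and the second at 7118 CPM against 8053 CPM. The part of that mismatch in the ratios was not tested. In the lowest range Ero1l had a ratio of -0.06 (-0.15 to 0.03), and it was at -0.87 in the third range and -1.42 (-1.45 to -1.39) in the highest. Ndrg1 went from 89.7 CPM in WT and 83.3 CPM in the knockout in the lowest range (-0.11, -0.22 to 0.00) to 639 and 262 CPM in the highest (-1.29, -1.34 to -1.24). Bnip3 was at -0.29 (-0.44 to -0.14) in the lowest range, -0.80 in the third and in the next above it, and -0.54 (-0.59 to -0.48) in the highest. Fam162a was higher in the knockout in all 5 ranges, with ratios of 0.51 (0.43 to 0.59) in the lowest, 0.44 in the second and 0.66 (0.62 to 0.71) in the highest. Egln3 was lower in all 5, from -0.76 in the lowest to -0.34 in the second and -0.52 in the highest. Higd1a went from 0.44 in the lowest range to -0.05 in the next to highest and 0.12 in the highest, and Ankrd37 from 0.50 to 0.09 and 0.36. The ranges differed little in depth (median UMIs per cell of 15833 to 16790 in WT and 14624 to 17926 in the knockout), and cycling cells were 34.4% of the lowest and 16.2% of the highest range in WT and 30.1% and 20.4% in the knockout. The part of the cell cycle in these differences was not tested.

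**Figure D4:**
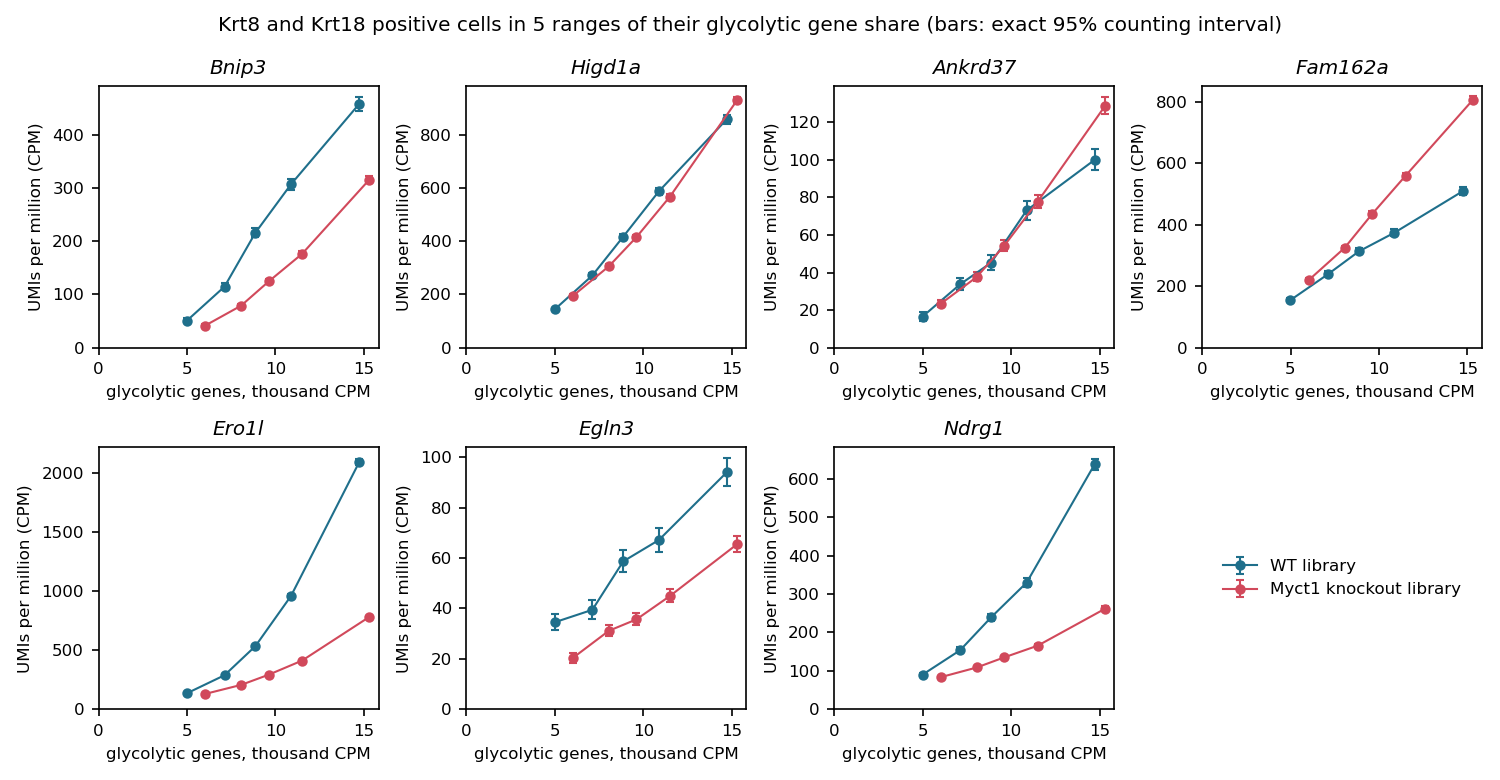
Each panel is 1 gene in Krt8 and Krt18 positive cells, with the summed level of glycolytic genes of each range (in units of 1000 CPM) on the horizontal axis, the gene's level (CPM) on the vertical axis, WT in blue, the knockout in red, and bars for the exact 95% counting interval. All lines climb from left to right, and the libraries part most at the right for Ero1l (2091 against 781 CPM) and Ndrg1 (639 against 262 CPM).

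In endothelial cells, cut in 2 ranges of equal cell number by the same score, 6 of the 7 genes were again higher in the upper range in both libraries, and Ndrg1 was not. By fold, Egln3 showed the largest such difference in WT, 12.004 CPM in the lower and 47.4 CPM in the upper range (3.95-fold), and Bnip3 in the knockout, 23.1 and 89.0 CPM (3.86-fold). Ero1l was at 51.6 and 62.6 CPM in the WT ranges and at 59.1 and 162 CPM in the knockout ones. In WT the counting intervals of the 2 ranges overlapped for Ero1l and for Bnip3 (12.6 and 23.7 CPM). The share of all genes that were higher in the upper range was not counted. Ndrg1 was at 253 CPM in the lower and 152 CPM in the upper range in WT, and at 134 and 122 CPM in the knockout. The ranges were cut within each library and do not match between them: the glycolytic genes summed to 2818 and 5113 CPM in the WT ranges and to 5473 and 9595 CPM in the knockout ones. The upper WT range and the lower knockout range, nearest in that sum, were set side by side after the values were seen. Ero1l was at 62.6 CPM in the first and 59.1 CPM in the second, Bnip3 at 23.7 and 23.1 CPM, Egln3 at 47.4 and 27.7 CPM, and Ndrg1 at 152 and 134 CPM, with counting intervals that overlapped. Higd1a was at 130.4 and 237 CPM there, Ankrd37 at 133.7 and 179.9 CPM, and Fam162a at 76.3 and 121 CPM, each with counting intervals that were apart.

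Genes of the set were also detected in the same cells. In thinned keratin positive cells the odds ratio of detecting 1 gene with another was above 1 in 21 of 21 pairs in both libraries, with a median of 1.89 in WT and 1.76 in the knockout. The highest was that of Bnip3 and Ero1l: Ero1l was found in 76.6% of WT cells with a Bnip3 UMI and 48.3% of those without (odds ratio 3.49), and in 63.1% and 40.9% in the knockout (2.47). In endothelial cells the odds ratio was above 1 in 14 of 21 pairs in WT and 17 of 21 in the knockout, highest for Bnip3 and Egln3 (3.71 and 4.01). Pairs of other genes were not counted, so odds ratios above 1 are not shown to be particular to this set. Cells of 1 library share its pool of mice, so these are descriptions of each library.

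Fibroblasts were few in the knockout library, and in them 4 of the 7 genes were at least 1.5-fold higher, where 17.8% of 8722 genes were, and 0 lower, where 23.5% were. The median was 0.68 over the 7 genes and -0.10 over all genes, and the median over the 7 was 0.10 with equal weight per cell, 0.30 relative to genes of like length and -0.24 without cycling cells. Higd1a was at 208 CPM in WT and 439 CPM in the knockout (5226 and 404 UMIs), a ratio of 1.08 (0.93 to 1.22). Fam162a was at 143 and 253 CPM (0.83, 0.63 to 1.02), and Ankrd37 at 13.97 and 26.1 CPM (351 and 24 UMIs; 0.93, 0.24 to 1.499). Egln3 was at 14.5 and 22.8 CPM (0.68, -0.06 to 1.29), but 19 of its 21 knockout UMIs lay in 5 cells, and without cycling cells its ratio was -0.77. For the other genes the 5 highest of the 93 knockout cells held from 32.7% (Higd1a) to 53.0% (Bnip3) of the UMIs, with Fam162a at 41.2% and Ankrd37 at 50.0%. The counting intervals do not cover such unevenness among cells. Bnip3 (159 and 146 CPM), Ero1l (152 and 129 CPM) and Ndrg1 (185 and 183 CPM) had ratios from -0.23 to -0.01 whose intervals include 0. Relative to genes of like length 2 of the 7 genes, Higd1a and Egln3, passed 1.5-fold, and 4 did so without the cells whose barcode occurs in both libraries. The 10 fibroblast markers summed to 56909 CPM in WT and 50394 CPM in the knockout fibroblasts, Krt8 and Krt18 to 10.5 and 16.3 CPM, and the osteopontin gene Spp1 was at 1421 and 6218 CPM. The part of Spp1-bearing cells in these ratios was not tested.

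In mural cells, 21 of them in the knockout, 5 of the 7 genes reached 20 UMIs over both libraries, with 0 at least 1.5-fold higher, where 15.1% of 5275 genes were, and 2 lower, where 37.9% were. Both, Bnip3 (54.4 and 28.7 CPM, 4 knockout UMIs) and Ero1l (57.7 and 28.7 CPM, 4 knockout UMIs), had intervals that include 0, and so did the ratios of the other 5. Higd1a was at 175 CPM in WT and 223 CPM in the knockout and Fam162a at 157 and 208 CPM. The mural cells differed between the libraries in summed mural markers (13183 and 7245 CPM), fibroblast markers (7126 and 3892 CPM) and cell cycle markers (391 and 1680 CPM), whose part was not tested. With TMM factors 28.7% of all genes were lower and 23.5% higher, and the median of all genes moved by 0.25.

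Across the classes of a library most of the 7 genes were highest in the keratin positive cells. In WT this held for Bnip3, Higd1a, Fam162a, Ero1l, Egln3 and Ndrg1, each with an interval apart from that of the next class. Ankrd37 was highest in endothelial cells in both libraries, at 103 CPM in WT and 259 CPM in the knockout, against 53.4 and 64.9 CPM in keratin positive cells and 13.97 and 26.1 CPM in fibroblasts. In the knockout Egln3 was highest in endothelial cells (64.2 CPM, against 39.8 CPM in keratin positive cells), and Ndrg1 in fibroblasts (183 CPM, against 152 CPM). However, 83 of the 168 Ndrg1 UMIs of the knockout fibroblasts lay in 5 of 93 cells. For Bnip3 and Higd1a in the knockout the keratin positive and fibroblast intervals overlapped. Endothelial cells had the lowest level of Bnip3, Higd1a and Fam162a in WT, and Ndrg1 was lowest in mural cells in both libraries (18.1 and 21.5 CPM).

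The genes whose pattern over the 8 sums (4 classes in 2 libraries) was most like each of the 7 were taken from 2980 genes by Pearson's r of log2(CPM + 10), as a description over sums that share libraries. Nearest to Bnip3 were Vegfa, the vascular growth factor gene (0.94), Ltbp1 (0.93) and Cstb (0.89). Fam162a was nearest to the glycolytic genes Pgam1 (0.98) and Tpi1 (0.97) and to Rnh1 (0.96), and Higd1a to Tpi1, Rnh1 and Sfr1 (each 0.93). Ero1l was nearest to Mxi1 (0.96), Paics (0.94) and the glucose transporter gene Slc2a1 (0.94). Ankrd37 had Sub1 (0.98), Glrx2 (0.96) and Pomp (0.95), Egln3 had Ube2d3 (0.94), Mob4 (0.91) and Snrpe (0.91), and Ndrg1 had Skil (0.97), Smad7 (0.95) and Trib1 (0.90). Among the 7 themselves r ran from -0.37 for Bnip3 and Ankrd37 to 0.92 for Higd1a and Fam162a, so over these sums the set did not vary as 1 block. With 8 sums and 2980 genes searched, a high r is easily reached. Of the sums, 1 was that of 21 knockout mural cells, with 3 (Ndrg1) to 31 (Higd1a) UMIs per gene.

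The pathways around these genes were described by lists. Of 17 glycolytic genes counted in endothelial cells, 9 passed 1.5-fold upwards in the knockout and 0 downwards (median 0.82), led by Pgk1 (1.97), Eno1 (1.37) and the lactate dehydrogenase gene Ldha (1.34). Glycolytic enzyme genes have processed copies in the genome, and the sources used here do not say how reads were divided among the copies. Of 17 other hypoxia-induced genes 6 were higher and 2 lower (median 0.27), with the growth factor gene Pgf at 1.51, the collagen hydroxylase gene P4ha2 at 1.37 and the adenylate kinase gene Ak4 at 1.09. Of 8 oxygen-sensing genes 0 passed 1.5-fold upwards and 3 downwards (median -0.55), namely Epas1 (633 CPM in WT and 246 CPM in the knockout, -1.36), Arnt (-0.90) and Vhl (-0.86). Hif1a was at 406 and 279 CPM (-0.54), and Egln1, the sister gene of Egln3, at 77.3 and 90.9 CPM (0.23).

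Lists that match the role of a single gene gave mixed directions in endothelial cells. Of 14 genes of mitophagy and the outer mitochondrial membrane, where Bnip3 acts, 2 were higher and 2 lower (median -0.05), with Bcl2l1 at -1.33, Gabarapl2 at 0.95, Pink1 at -0.88, and the Bnip3 paralogue Bnip3l at 219 CPM in WT and 218 CPM in the knockout. Of 12 genes of HIG1 domain proteins and cytochrome oxidase, 3 were higher and 0 lower (median 0.49), with Cox5a at 0.68, Cox6b1 at 0.63 and Cox7a2 at 0.62, while Higd2a, a relative of Higd1a, was at 207 CPM in both. Of 12 genes of oxidative folding, where Ero1l acts, 2 were higher and 1 lower (median -0.01): the peroxiredoxin gene Prdx4 was at 1.66, the disulphide isomerase gene Pdia6 at 0.60, and the sulphydryl oxidase gene Qsox1 at -2.17. Of the 3 genes counted beside Ndrg1, its kinase gene Sgk1 (402 CPM in WT and 189 CPM in the knockout, -1.09) and Ndrg3 (-0.72) were lower, and Myc was at -0.34. These counts stand against the 11.4% and 36.3% of all genes given above. The lists were not set against genes of like transcript length, whose endothelial medians ran from 0.44 for the shortest to -0.76 for the longest.

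In keratin positive cells the counts of the same lists stand against 18.3% of all genes lower and 5.25% higher, with a median of -0.24. Here too the lists were not set against genes of like transcript length. Of 22 other hypoxia-induced genes 12 were at least 1.5-fold lower in the knockout and 0 higher (median -0.61), led by Lox (-4.53), Stc1 (-1.14) and Stc2 (-1.11), the highest of which was Stc2 in WT at 10.7 CPM. Of 19 glycolytic genes 4 were lower and 1 higher (median -0.10), with Slc16a3 and Pfkfb3 at -0.99 each and Slc2a1 at -0.77. Slc16a3 was near the floor, at 0.71 CPM in WT and 0.36 CPM in the knockout (42 and 43 UMIs). Of 8 oxygen-sensing genes 4 were lower, among them Epas1 (-1.79), Vhl (-0.83) and Arnt (-0.70), and 0 higher. Epas1 was near the floor too, at 0.81 and 0.23 CPM (48 and 28 UMIs), against 633 and 246 CPM in endothelial cells. The part of free endothelial RNA in it was not tested. Of 12 folding genes 4 were lower and 1 higher, with Ddit3 at -1.03, Atf4 at -0.70 and Prdx4 at 1.04. In the mitophagy list 1 of 14 genes was higher (Gabarapl2, 0.60) and 1 lower (Bcl2l1, -0.67), and Pink1 was at -0.53. None of the 12 HIG1 and oxidase genes passed 1.5-fold, with Cox7a2l at -0.51 and Cox7a2 and Cox5b at 0.38 each, and none of the 3 genes beside Ndrg1 did, with Myc at -0.53, Sgk1 at -0.43 and Ndrg3 at -0.42.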

How the data were processed

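Single-cell RNA libraries of WT and Cdh-cre Myct1 fl/fl tumours, 1 per genotype, were compared. For each library the authors deposited a matrix of whole UMI counts by gene and barcode; the submitters' processing notes name Cell Ranger 2.1.1 and the mm10 build, and no source used here names the annotation. Every listed gene reaches at least 4 UMIs in some barcode, tested on the files, so a gene that is not listed may still be expressed.

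Barcodes with under 200 listed genes or over 10% mitochondrial UMIs were left out, then those with a Scrublet score over 0.3 (scanpy 1.11.5, expected doublet rate 0.08), 2.73% of WT and 1.61% of knockout cells. The thinning of cells to 3000 UMIs used seed 1. Classes needed at least 6 of 15 endothelial, 5 of 10 mural or 7 of 10 fibroblast markers with limits on the markers of other classes, or UMIs of both Krt8 and Krt18, at least 3 in all and 200 CPM. The markers follow from knowledge of the cell types, but these limits were set after marker counts per barcode were seen. From 8 to 286 cells per class and library lay at or next to a limit, among them 15 of 92 WT and 8 of 21 knockout mural cells.

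Counts were summed per class and library and divided by the class total (CPM). The log2 ratio adds 0.5 UMI to each sum, and its interval is the exact conditional binomial interval at 95%; levels have exact Poisson intervals. PCR duplicates are removed by UMIs, and the intervals cover counting error only. With 1 library per genotype no p-value or SE was computed. A gene is counted at 20 UMIs or more over both sums and called at 1.5-fold, and the share of all such genes past that fold is printed beside the members' count. The ratio and interval were tested on simulated data. TMM factors came from edgeR 4.0.16 and alternatives are given below. All members are named, with the 3 genes of largest ratio per list and the 3 most like genes per member; Hif1a, Egln1, Bnip3l and Higd2a were added after their values were seen. The members and lists were chosen with earlier results of these data known. Software was Python 3.11.15 with numpy 2.4.6, scipy 1.17.1 and pandas 2.3.3, and R 4.3.3.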

Additional observations from a re-analysis of the deposited data

Results flagged for a closer look

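Of the 7 genes, 3 had opposite directions in endothelial and in Krt8 and Krt18 positive cells, each with a counting interval that excludes 0. The endothelial log2 ratio minus the keratin positive one was 2.25 for Bnip3 (1.64 against -0.61), 2.104 for Ero1l (0.98 against -1.12) and 1.57 for Egln3 (1.01 against -0.56). With 1 library per genotype these differences were not tested.

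Barcodes left out for over 10% mitochondrial UMIs also held RNA of these genes, above the limit that a count of 0 allows. The 7 genes summed to 1035 CPM in 1654 such WT barcodes (12236 UMIs) and to 1321 CPM in 523 knockout barcodes (6326 UMIs). Ero1l was at 347 CPM in WT and 301 CPM in the knockout there, and Higd1a at 184 and 338 CPM.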

How the results depend on the processing

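No paired analysis was possible because each genotype has 1 library, and no library could be left out for the same reason. Over 16 settings per class, 369 of 448 log2 ratios stayed within the counting interval of the reported value and 103 of 128 counts of members within 1.5 times of it, and 4 ratios and 1 median past 1.5-fold changed sign. The cause was not tested. The setting with no minimum of UMIs cannot change a ratio, so its ratios stayed by construction. The endothelial count of 6 higher genes was 5 without cells holding a UMI of Acer2, Cd36, Rbp7 or Cd300lg (added after seeing the data) and 6 at all other settings. The endothelial count of lower genes was 0 in place of 1 without those cells, where Ndrg1 had a ratio of 0.74, and with TMM factors, totals without mitochondrial and ribosomal protein genes, ratios relative to genes of like length, or ratios relative to the median of all genes (added). In keratin positive cells 1 gene was higher in place of 0 with a mitochondrial limit of 20%, TMM factors, totals without mitochondrial and ribosomal protein genes, equal weight per cell, thinning to 3000 UMIs, without cycling cells, and relative to the median. The keratin positive count of 3 lower genes ran from 2 to 4. It was 2, for example, with TMM factors, ratios relative to genes of like length or equal weight per cell. It was 4, for example, with the stricter gate, thinning or without cycling cells. In fibroblasts the median over the members, 0.68, was 0.10 with equal weight per cell, 0.30 relative to genes of like length and 1.07 with thinning. There 2 in place of 4 genes were higher relative to genes of like length, and without cycling cells 1 in place of 0 was lower, the median over the members was -0.24 and Egln3 had a ratio of -0.77. In mural cells the higher count of 0 was 2 with a stricter gate, TMM factors or relative to the median, and 1 with the mitochondrial limit of 20%, thinning or no minimum of UMIs. The mural lower count of 2 was 1 with the stricter gate, TMM factors or like length, and 0 with thinning or relative to the median. Mural Bnip3 had a ratio of 0.42 with the stricter gate and 0.18 with thinning.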

Other observations

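Cells in none of the 4 classes (1036 in WT and 1086 in the knockout) also held these genes. Higd1a was at 382 CPM in WT and 507 CPM in the knockout there, Fam162a at 266 and 478 CPM, Ankrd37 at 45.7 and 79.8 CPM, Ero1l at 588 and 516 CPM, and Ndrg1 at 264 and 220 CPM. Barcodes with under 200 listed genes (1106 and 1955) held far less, 72.3 CPM of the 7 genes summed in WT and 90.2 CPM in the knockout, with Ero1l highest in WT (23.0 CPM) and Higd1a highest in the knockout (31.0 CPM).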
